A study of Mus musculus with 6 samples.

Results

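Cell cycle and DNA replication genes were followed in the forebrain of mouse embryos without Fezf1 and Fezf2, and of wild-type embryos. The set holds the 85 genes, of 18194 named on the array, whose symbols belong to the replication licensing factors, cyclins, cyclin-dependent kinases and their inhibitors, E2f factors, mitotic kinases, centromere proteins and a few proliferation markers. The rule used symbols only and no measured value, but it was set with earlier results of these data known. A gene was read through its brightest probe set over all arrays. Ccnb1 is not among the 85, because it is not named alone by any probe set of the annotation.

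The groups were Fezf1-/- Fezf2-/- embryos (hereafter knockout) and wild-type embryos, each at embryonic day 9.5 (E9.5), E10.5 and E12.5. Each group was 1 array of total RNA from forebrain cut by hand at the rear edge of the lateral ventricle, so there were 6 arrays. Both deletions are carried by every cell of the knockout tissue. The sources used here do not say how many embryos an array pooled, or of which sex. Fezf1 and Fezf2 encode related zinc-finger repressors that pattern the early forebrain. Fezf2 had a signal, in order of age (as in every such triplet hereafter), of 0.458, 0.904 and 1.66 in the knockout, against 78.9, 146 and 249 in wild type. Fezf1 read 97.7, 78.4 and 49.5 in the knockout, against 251, 143 and 174 in wild type, and where its probe set lies relative to the deletion is not given.

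A dividing cell loads the Mcm2 to Mcm7 helicase onto replication origins in G1 with the help of the origin recognition complex (Orc1 to Orc6), Cdc6 and Cdt1. Cyclin D and cyclin E kinases then free E2f factors from the retinoblastoma proteins, E2f targets such as the Mcm genes are transcribed, and replication starts. Cyclin B with Cdk1 drives mitosis, and inhibitors of the Cdkn1 and Cdkn2 families hold kinases back, above all in cells that leave the cycle. Between these ages the wall of the forebrain passes from a dividing neuroepithelium to a tissue that also makes neurons.

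Values are MAS5 signal (probe brightness on a linear scale) after quantile normalization, because the deposited arrays differed in level: the 2% trimmed mean was 114, 91.2 and 162 in the knockout, against 108, 74.3 and 139 in wild type. Without that step the median of all tested genes moved by 0.55 on the log2 scale for E12.5 over E9.5, by -0.39 for E10.5 over E9.5 and by 0.92 for E12.5 over E10.5. Age changes were therefore read under 4 scalings, namely quantile-normalized, deposited, common trimmed mean and common median. Of the 85 genes, 81 were bright enough to be tested. Ccna1, Ccnb3, Cdkn2a and Cdkn2b were not, and their signals lay between 0.438 and 12.7 on the 6 arrays, below the median of all values, 24.0. A change is a difference in log2(signal + 6.50) from a limma fit of age and genotype over all arrays, with its SE, and passed at a Benjamini-Hochberg adjusted p under 0.05 over 11091 genes. Each age is 2 arrays, 1 of each genotype.

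After quantile normalization most members were lower at E12.5 than at E9.5, with a smaller group higher. In the test, 46 of 81 fell, beside 36.9% of all tested genes, and 16 rose, beside 25.9% of all tested genes. The median change was -0.37 over the members and -0.14 over all tested genes. These medians were 0.075 and 0.40 with the deposited values, so that of the members changed sign. The direction of single members depended on scaling: 26 of the 46 fell under all 4 scalings (15% of all tested genes did), and 10 of the 16 rose under all 4 (22% of all tested genes did). At least 2-fold changes that passed numbered 14 lower (13% of all tested genes) and 6 higher (10.3%).

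**Figure D1:**
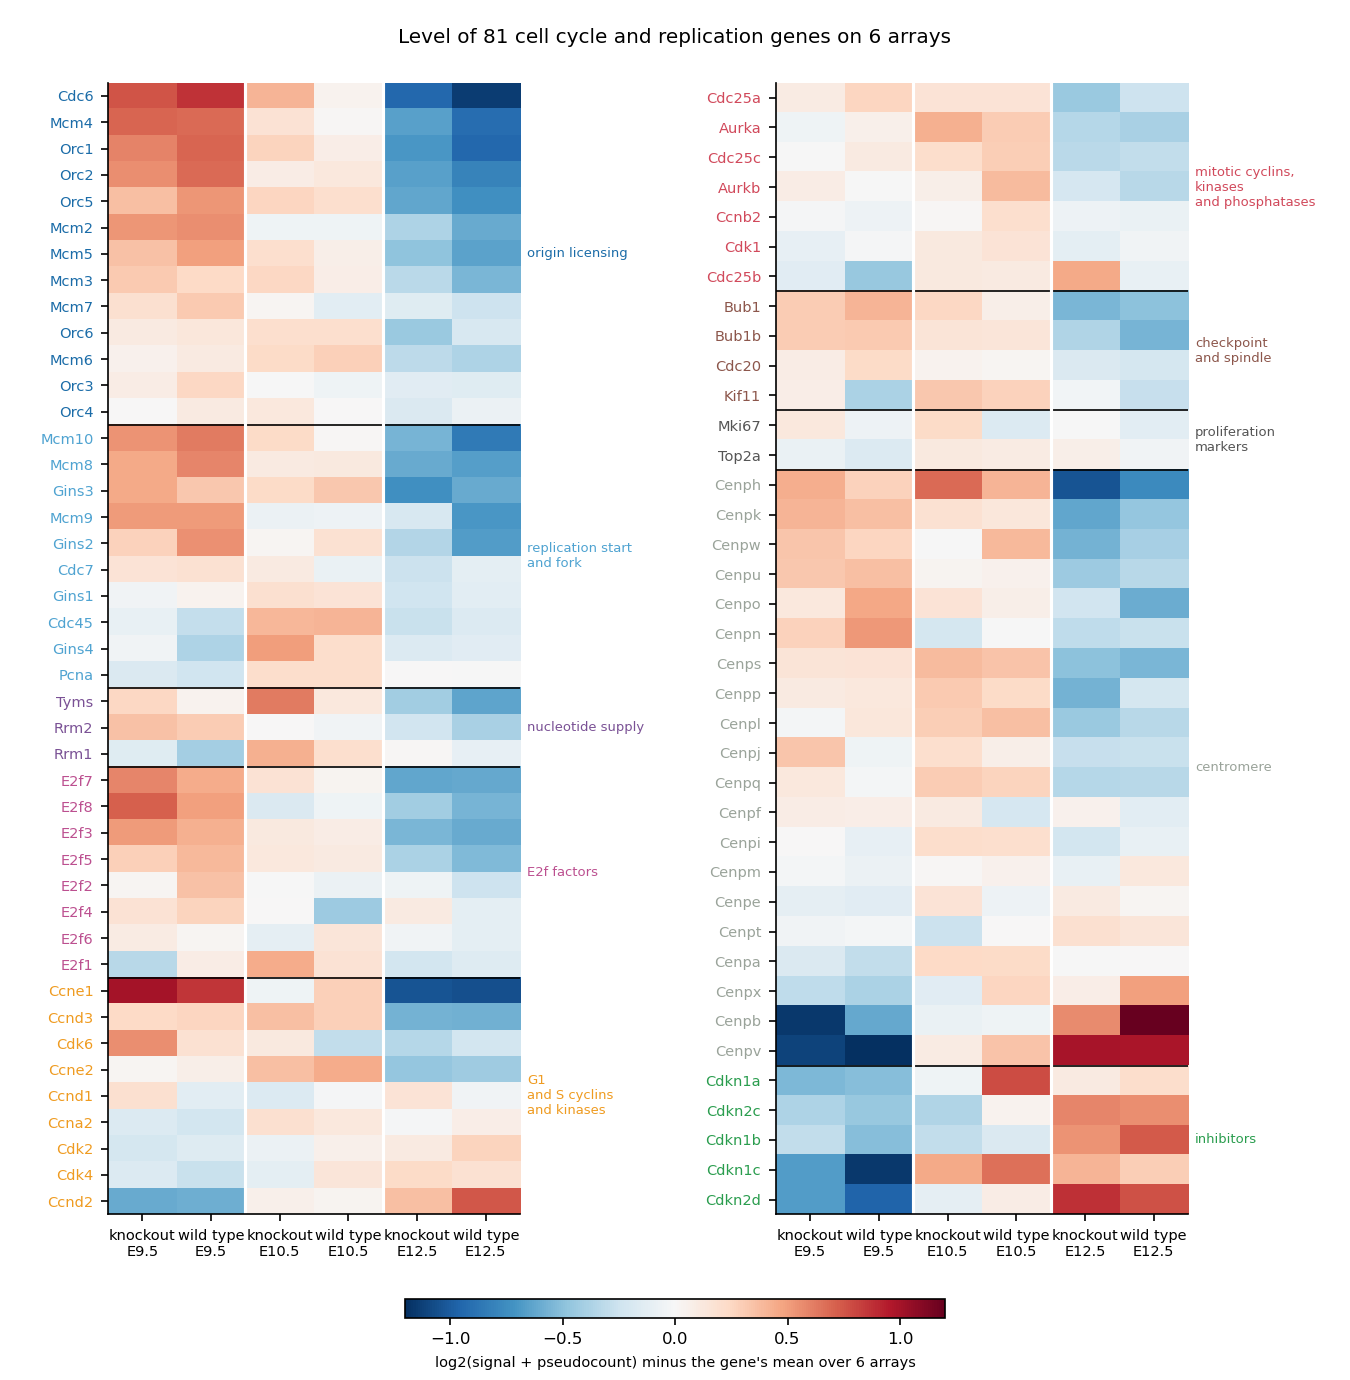
Level of the 81 tested genes on each of the 6 arrays, as log2(signal + 6.50) minus the gene's own mean over the arrays, after quantile normalization. Columns are arrays, with the knockout left of wild type at each age, rows are genes ordered by role and by change, and colours are limited to 1.2 on either side of 0. Licensing rows and those of E2f3, E2f5, E2f7 and E2f8 are lower at E12.5 than at E9.5, inhibitors the other way round. The other E2f rows did not pass. Mki67, Top2a, Cdk1 and Ccnb2 stay near their means, a flatness that holds in this scaling only, since these 4 fell under a common median and Top2a passed as higher with the deposited values.

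The origin licensing genes fell almost without exception. Of 13 tested, 12 fell and 0 rose, with a median of -0.99, and 10 fell under all 4 scalings: Cdc6, Mcm2 to Mcm7, Orc1, Orc2 and Orc5. Cdc6, which recruits the helicase to origins, read 726, 570 and 219 in the knockout, against 785, 439 and 190 in wild type. Both E12.5 arrays were below both E10.5 arrays, and those below both E9.5 arrays. Its change from E9.5 was -1.86 ± 0.13 (adjusted p = 3.02e-06), a 3.62-fold fall.

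Among the helicase subunits, Mcm4 fell furthest. It read 2197, 1531 and 862 in the knockout, against 2179, 1369 and 715 in wild type, a change of -1.47 ± 0.08 (adjusted p = 1.20e-06). Mcm2 read 1513, 1010 and 809 in the knockout, against 1541, 1010 and 688 in wild type, a change of -1.03 ± 0.09. The 6 subunits form a single ring, and all 6 fell under all 4 scalings, but by unequal amounts: Mcm5 changed by -0.99 ± 0.08, Mcm3 by -0.71 ± 0.08, Mcm7 by -0.45 ± 0.07 and Mcm6 by -0.42 ± 0.07. Probe sets of a gene did not always go together. The second probe set of Mcm5 stood at -0.02, and the mean of its 3 probe sets (-0.14, adjusted p = 0.256) did not pass. The second of Mcm7 stood at -0.05, but the mean of its 4 probe sets passed (-0.47). The second probe sets of Mcm4 and Mcm6 stood at -0.78 and -1.25.

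The origin recognition complex, which marks the sites where the helicase is loaded, split by subunit. Orc1 read 168, 133 and 64.5 in the knockout, against 180, 116 and 53.7 in wild type, a change of -1.47 ± 0.16. Orc2 changed by -1.35 ± 0.12 and Orc5 by -1.12 ± 0.11. Orc6 (-0.44 ± 0.10) and Orc3 (-0.31 ± 0.11) also passed, but with the deposited values they stood at -0.10 and 0.17 and did not pass. Orc4 did not pass (-0.18 ± 0.11).

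Genes that start or run the fork were mixed. Of 10 tested, 6 fell and 1 rose, with 3 lower under all 4 scalings: Mcm10 (-1.29 ± 0.13), which helps switch the loaded helicase on, Mcm8 (-1.15 ± 0.13), a helicase of recombination repair, and Gins2 (-0.92 ± 0.15), a subunit of the active helicase. Gins3 (-1.06 ± 0.15) and Mcm9 (-0.96 ± 0.22) fell under the 3 scalings that set arrays to a common level, as did Cdc7, the kinase that fires origins (-0.36 ± 0.11). Pcna, the sliding clamp of the fork, read 4752, 6207 and 5372 in the knockout, against 4548, 6225 and 5354 in wild type, highest on both E10.5 arrays. Its change at E12.5 over E9.5 was 0.21 ± 0.06, which passed, but it was -0.25 with a common trimmed mean and -0.39 with a common median, passing in the other direction. Cdc45 and Gins4 were also highest at E10.5, at 272 and 474 in the knockout and 274 and 386 in wild type. With the deposited values this peak was lost: E12.5 over E10.5 was then 0.14 for Pcna, 0.33 for Cdc45 and 0.37 for Gins4, of which Gins4 passed as higher (adjusted p = 0.025).

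Enzymes of nucleotide supply did not move together. Rrm2, the small subunit of ribonucleotide reductase, fell under all 4 scalings (-0.64 ± 0.06), with 6122, 4820 and 4090 in the knockout against 5921, 4648 and 3654 in wild type, but its probe sets disagreed. The second stood at 0.71, and the mean of all 3 passed in the other direction (0.29, adjusted p = 0.0048). Rrm1, the large subunit, read 1157, 1722 and 1290 in the knockout, against 963, 1466 and 1195 in wild type, again highest at E10.5 after this scaling but not with the deposited values, where it passed as higher at E12.5 than at E10.5 (0.28). Tyms, thymidylate synthase, was dim, with 60.6, 80.7 and 36.0 in the knockout against 51.9, 55.3 and 30.1 in wild type.

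The E2f family split into 4 members that fell under all 4 scalings and 4 that did not pass. E2f7, an atypical repressor, read 528, 394 and 224 in the knockout, against 476, 358 and 225 in wild type, a change of -1.14 ± 0.11. E2f8, the other atypical repressor, changed by -1.09 ± 0.15, the activator E2f3 by -1.04 ± 0.10 and E2f5, which works with pocket proteins, by -0.79 ± 0.10. With the mean of all probe sets of a gene E2f3 still passed (-1.03), but E2f8 (-0.45, adjusted p = 0.097) and E2f5 (-0.44, adjusted p = 0.156) did not. E2f1, an activator, read 73.0, 130 and 79.7 in the knockout, against 100, 107 and 83.8 in wild type (-0.06 ± 0.20), and E2f2, E2f4 and E2f6 did not pass either.

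Among G1 and S cyclins and kinases, 4 of 9 fell and 4 rose. Ccne1, the cyclin E that takes cells into S phase, read 678, 325 and 161 in the knockout, against 615, 411 and 159 in wild type. At -1.97 ± 0.13 (adjusted p = 2.69e-06), a 3.92-fold fall, it had the largest decrease of the 81. Its paralogue Ccne2 read 327, 414 and 232 in the knockout, against 337, 440 and 237 in wild type, a change of -0.49 ± 0.11 that did not pass with the deposited values (0.01).

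The 3 D cyclins, which link growth signals to the G1 kinases, went 3 ways. Ccnd2 read 1904, 3020 and 3720 in the knockout, against 1933, 2962 and 4855 in wild type, and rose by 1.15 ± 0.10 (adjusted p = 8.95e-06). Ccnd3 fell by 0.82 ± 0.10, with 417, 453 and 235 in the knockout against 423, 430 and 234 in wild type. Ccnd1 read 1866, 1456 and 1833 in the knockout, against 1502, 1616 and 1588 in wild type, with a change of 0.03 ± 0.11 that did not pass. Ccnd2 and Ccnd3 kept their directions and passed under all 4 scalings. Cdk6, a partner of the D cyclins, fell (-0.65 ± 0.15), and Ccna2 (0.22 ± 0.08), Cdk2 (0.37 ± 0.10) and Cdk4 (0.42 ± 0.09) rose in this scaling, but not 1 of these 4 passed under all 4.

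**Figure D2:**
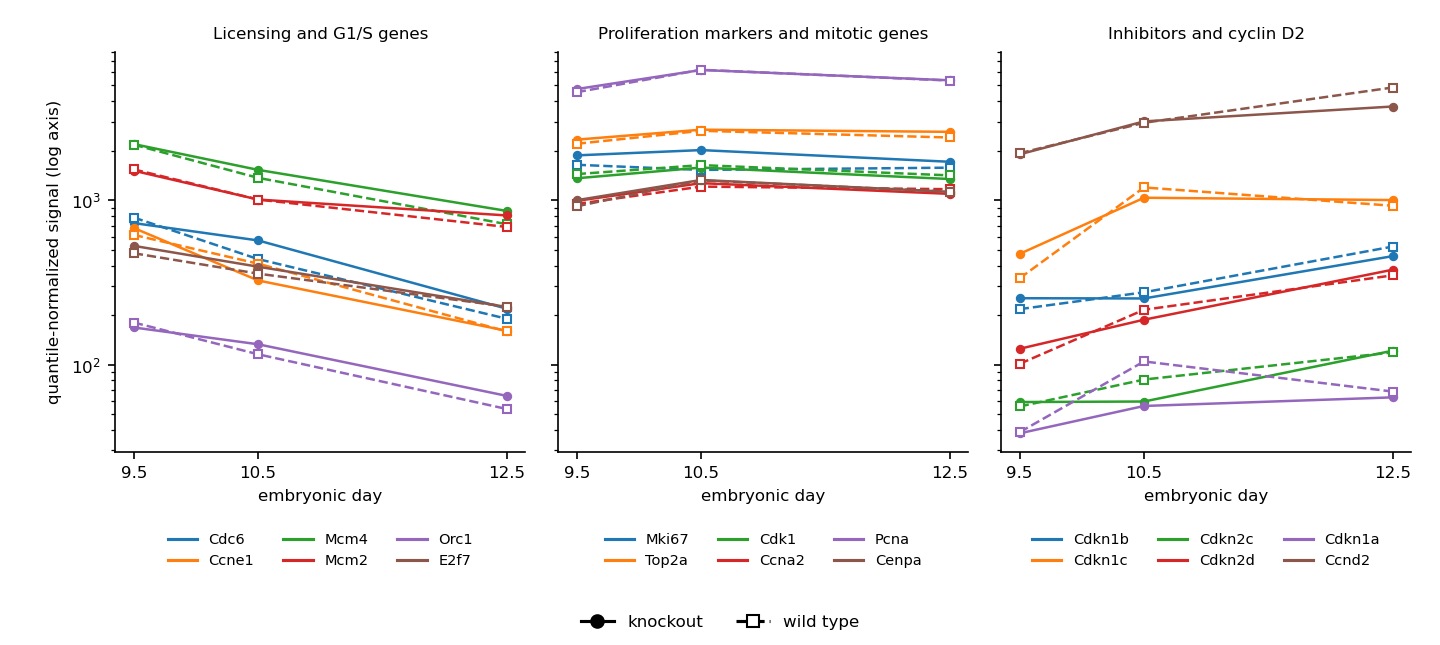
Quantile-normalized signal on a log axis against embryonic day for 18 members, with filled circles and solid lines for the knockout and open squares and dashed lines for wild type, 1 array a point. Cdc6, Ccne1, Mcm4, Mcm2, Orc1 and E2f7 (left) are lowest at E12.5 in both genotypes. In the centre, Mki67, Top2a and Cdk1 did not pass at E12.5 over E9.5 in this scaling. Ccna2, Pcna and Cenpa passed as higher there, and Ccna2 (0.35) and Cenpa (0.46) also at E10.5 over E9.5. Pcna, Cdk1, Mki67 and Top2a fell with a common median, and Top2a passed as higher with the deposited values. The inhibitors and Ccnd2 (right) are higher at E12.5 than at E9.5.

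Cdk1, Ccnb2 and the general markers of dividing cells did not pass after quantile normalization. Cdk1, the mitotic kinase, read 1361, 1581 and 1347 in the knockout, against 1443, 1637 and 1417 in wild type, a change at E12.5 over E9.5 of -0.02 with a 95% interval of -0.18 to 0.14. Mki67, the standard proliferation marker, changed by -0.09 (interval -0.28 to 0.10), Top2a, the topoisomerase that untangles chromosomes, by 0.14 (-0.01 to 0.29) and Ccnb2, a cyclin B, by -0.04 (-0.24 to 0.17). The call depended on the scaling. With the deposited values Top2a passed as higher (0.27, adjusted p = 0.024) and the other 3 did not pass. With a common trimmed mean Mki67 (-0.36) and Cdk1 (-0.27) passed as lower, and with a common median all 4 did, at between -0.30 for Top2a and -0.50 for Mki67.

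Of 7 mitotic cyclins, kinases and phosphatases, 4 fell (Cdc25a, Aurka, Cdc25c and Aurkb, by 0.31 to 0.53), none of them under all 4 scalings. Aurkb, the kinase of the chromosomal passenger complex, read 540, 535 and 441 in the knockout, against 508, 663 and 402 in wild type (adjusted p = 0.049). Cdc25b, a phosphatase that activates Cdk1, rose under all 4 (0.48 ± 0.15), with 172, 206 and 263 in the knockout against 136, 205 and 178 in wild type. The spindle checkpoint kinases Bub1 (-0.87 ± 0.09) and Bub1b (-0.77 ± 0.09) and Cdc20, the activator of the anaphase-promoting complex (-0.35 ± 0.07), fell under all 4 scalings, whereas the second probe set of Cdc20 stood at 0.27. Kif11, the spindle motor, did not pass (-0.01 ± 0.12).

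The centromere genes were divided. Of 20 tested, 11 fell and 4 rose, but 3 and 3 under all 4 scalings. Cenph, a kinetochore subunit, read 397, 472 and 140 in the knockout, against 357, 391 and 169 in wild type, a change of -1.25 ± 0.14, with no passing change at E10.5 over E9.5 (0.19). Cenpk (-0.92 ± 0.09) and Cenpw (-0.78 ± 0.12) also fell, though the second probe set of Cenpk stood at 1.02.

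Cenpv had the largest rise of all members. It read 123, 293 and 551 in the knockout, against 107, 350 and 545 in wild type, a change of 2.19 ± 0.13 (adjusted p = 1.54e-06), or 4.56-fold. Cenpb, which binds a repeat of centromeric DNA, read 50.5, 114 and 183 in the knockout, against 77.0, 116 and 315 in wild type (1.84 ± 0.19), but its second probe set, below the brightness limit, stood at -0.11. Cenpx rose by 0.63 ± 0.16. Cenpa, the histone variant that defines the centromere, passed as higher after quantile normalization (0.23 ± 0.08) and with the deposited values (0.46), and stood at 0.03 and -0.11 with the common trimmed mean and the common median, where it did not pass.

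All 5 tested inhibitors rose, under all 4 scalings, with a median of 1.04. Cdkn2d, which encodes the Cdk4 and Cdk6 inhibitor p19Ink4d, read 125, 188 and 378 in the knockout, against 101, 216 and 349 in wild type, a change of 1.64 ± 0.15 (adjusted p = 1.27e-05). Cdkn1b, p27, read 253, 253 and 457 in the knockout, against 218, 275 and 522 in wild type (1.04 ± 0.13). Cdkn1b and Cdkn2c (0.99 ± 0.19), p18, were higher at E12.5 than at both earlier ages.

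Cdkn1c, p57, took an earlier course, with 472, 1036 and 1003 in the knockout against 335, 1197 and 926 in wild type. Its change was already 1.47 ± 0.14 at E10.5 over E9.5, against 1.26 ± 0.14 at E12.5 over E9.5. Cdkn1a, p21, was dim, at 38.2, 56.0 and 63.2 in the knockout against 38.8, 105 and 68.5 in wild type (0.68 ± 0.24, adjusted p = 0.032), and did not pass without the brightness filter (adjusted p = 0.076).

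The 2 steps in time share the E10.5 arrays. At E10.5 over E9.5, 15 members fell (15.1% of all tested genes) and 16 rose (13.8%), and under all 4 scalings 15 fell (14.6%) and 4 rose (4.78%: Cdkn1c, Cdkn2d, Cenpb and Cenpv). The 15 that fell were Ccne1, Cdc6, Cdk6, Cenpn, E2f3, E2f7, E2f8, Mcm2, Mcm4, Mcm5, Mcm7, Mcm8, Mcm10, Orc2 and Rrm2, led by Ccne1 (-0.81) and E2f8 (-0.72). With the mean of all probe sets of a gene Mcm5 (0.49) and Rrm2 (0.43) passed in the other direction at this step. Cdk6, Cenpn, E2f3, E2f8 (-0.23), Mcm2, Mcm4, Mcm7, Mcm10 and Orc2 (-0.02) then did not pass. Ccne1, Cdc6, E2f7 and Mcm8 still passed as lower. At E12.5 over E10.5, 47 fell (29.9%) and 6 rose (20.2%), but with the deposited values 2 fell and 47 rose, and under all 4 scalings 2 fell (3.71%), Cdc6 (-1.27) and Cenph (-1.44). Cdkn1b, Cdkn2c, Cdkn2d, Cenpb and Cenpv, 5 members, rose at this step under all 4 (16.8%).

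Where a member had a second probe set bright enough to read, it mostly went the same way. This held for 26 of 32 such genes among those that fell and 5 of 5 among those that rose between E9.5 and E12.5. The 6 that went the other way were Gins3, Cenpk, Rrm2, Tyms, Cdc7 and Cdc20. With the mean of all probe sets of a gene in place of the brightest, 47 of the 62 members called at E12.5 over E9.5 were still called in the same direction, and Rrm2 was called in the other.

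Promoter windows were read from RefSeq (GRCm38.p6), 250 bases before to 50 after each start, for 72 of the 85 genes (86 windows). The E2F motif was searched in 4 spellings, TTCCCGC and also TTCGCGC and also TTGGCGC and also TTGCCGC, and the cell cycle homology region (CHR), an element of many genes expressed in G2 and M, as TTTGAA and also TTCGAA, both on either strand. E2F letters were in 39.5% of the members' windows, beside 9.57% of all 32851 windows in the table, and CHR letters in 30.2%, beside 19.2%. Among the 16 windows of licensing genes 56.3% held E2F letters and 12.5% CHR letters. By change at E12.5 over E9.5, the shares were 48.9% and 29.8% among the 47 windows of members that fell. Among the 18 windows of members that did not pass they were 27.8% and 50.0%. Of the 16 windows of members that rose, 4 held E2F letters and 2 held CHR letters. Such matches are descriptions of the letters and not of binding. The 180 bases before the start are given for 4 licensing genes that fell and have E2F letters there (Cdc6, Mcm5, Mcm6 and Orc1), for 3 genes with CHR letters there that did not pass (Cdk1, Top2a and Mki67) and for the inhibitor Cdkn1b, which rose and has neither. Sequences run 5′ to 3′ on the gene's strand, and capitals mark E2F and CHR letters, which overlap each other in the longer runs of Mcm5 and Mcm6.
Cdc6 (chr11:98907971-98908150, plus strand): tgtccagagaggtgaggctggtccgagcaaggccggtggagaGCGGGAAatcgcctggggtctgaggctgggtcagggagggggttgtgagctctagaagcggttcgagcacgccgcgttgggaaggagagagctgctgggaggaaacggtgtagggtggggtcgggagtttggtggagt
Mcm5 (chr8:75109329-75109508, plus strand): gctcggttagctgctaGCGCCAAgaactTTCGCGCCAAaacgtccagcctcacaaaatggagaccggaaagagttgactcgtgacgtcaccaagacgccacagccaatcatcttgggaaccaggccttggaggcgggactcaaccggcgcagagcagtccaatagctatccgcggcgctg
Mcm6 (chr1:128359706-128359885, minus strand): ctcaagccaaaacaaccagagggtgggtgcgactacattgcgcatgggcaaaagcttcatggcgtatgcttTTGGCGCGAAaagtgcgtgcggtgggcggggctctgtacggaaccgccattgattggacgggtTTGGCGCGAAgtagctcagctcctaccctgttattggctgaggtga
Orc1 (chr4:108579274-108579453, plus strand): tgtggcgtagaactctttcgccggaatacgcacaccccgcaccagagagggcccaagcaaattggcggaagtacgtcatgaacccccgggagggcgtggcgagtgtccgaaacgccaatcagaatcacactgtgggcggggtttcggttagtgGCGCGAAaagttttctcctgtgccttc
Cdk1 (chr10:69352913-69353092, minus strand): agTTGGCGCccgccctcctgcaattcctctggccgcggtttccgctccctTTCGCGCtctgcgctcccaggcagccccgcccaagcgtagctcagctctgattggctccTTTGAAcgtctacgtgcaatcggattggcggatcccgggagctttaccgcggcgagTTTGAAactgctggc
Top2a (chr11:99024190-99024369, minus strand): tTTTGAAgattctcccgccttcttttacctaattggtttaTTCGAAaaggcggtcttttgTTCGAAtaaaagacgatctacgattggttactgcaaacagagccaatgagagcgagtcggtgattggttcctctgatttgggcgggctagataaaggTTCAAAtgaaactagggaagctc
Mki67 (chr7:135716380-135716559, minus strand): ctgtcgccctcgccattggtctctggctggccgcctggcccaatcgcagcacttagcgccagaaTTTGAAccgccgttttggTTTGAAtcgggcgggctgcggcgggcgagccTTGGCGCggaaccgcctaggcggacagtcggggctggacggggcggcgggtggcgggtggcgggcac
Cdkn1b (chr6:134920221-134920400, plus strand): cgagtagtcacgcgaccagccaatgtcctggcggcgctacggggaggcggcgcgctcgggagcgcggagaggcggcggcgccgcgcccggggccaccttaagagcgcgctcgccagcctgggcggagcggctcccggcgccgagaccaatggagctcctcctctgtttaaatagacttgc
The licensing windows shown hold 1 (Cdc6 and Orc1) to 4 (Mcm6) E2F matches and 0 CHR matches. Cdk1 holds both, with 2 of each. Top2a holds 4 CHR matches and 0 E2F matches. Each of the windows but that of Cdc6 also holds the CCAAT letters (searched on either strand), which were in 67.4% of the members' windows and 37.4% of all windows.

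Genes of the same pathways outside the set were read from 3 lists, after quantile normalization only. Of all tested genes, 36.9% fell and 25.9% rose at E12.5 over E9.5 in that scaling (median -0.14). With the deposited values the median of all tested genes moved by 0.55, and the lists were not read there. Of 35 further genes of DNA replication and its repair synthesis, 27 fell and 2 rose at E12.5 over E9.5 (median -0.51). Cdt1, which loads the helicase together with Cdc6, read 2465, 1786 and 998 in the knockout, against 2661, 1648 and 881 in wild type (-1.44 ± 0.09). Its inhibitor geminin (Gmnn) also fell (-1.18 ± 0.08), as did Fen1, which trims Okazaki fragments (-1.51 ± 0.09), and Rfc1, the large subunit of the clamp loader (-1.59 ± 0.10), while Tk1, thymidine kinase, rose (0.47 ± 0.11).

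Of 37 further mitosis genes, 21 fell and 7 rose after quantile normalization (median -0.36). Hmmr stood at -1.13 ± 0.10 and Ube2c, the ubiquitin-conjugating enzyme of the anaphase-promoting complex, at 1.32 ± 0.11. Of 14 genes of cell cycle transcription control and exit, 4 fell and 7 rose (median 0.39). The pocket proteins Rb1 (1.31 ± 0.12), Rbl1 (0.82 ± 0.12) and Rbl2 (1.89 ± 0.31) were among those that rose, with the antiproliferative genes Btg1 (0.96 ± 0.08) and Btg2 (2.49 ± 0.15) and Gadd45g (2.56 ± 0.22). Btg2 read 47.0, 93.5 and 279 in the knockout, against 50.9, 121 and 333 in wild type.

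Other cell types moved with age beside these changes. In whole tissue, fewer cells of a type and less RNA per cell cannot be told apart. The summed signal of 12 early neuron markers, all 12 of which rose at E12.5 over E9.5, was 757, 1632 and 16330 in the knockout, against 671, 2714 and 16260 in wild type. That of 11 neural progenitor markers, 8 of which rose and 1 fell, was 8202, 9082 and 18110 in the knockout, against 7379, 10780 and 17080 in wild type. Much of that sum at E12.5 was Vim and Fabp7. Vim read 3113, 3729 and 5627 in the knockout, against 2702, 4659 and 5205 in wild type. Fabp7 read 430, 778.5 and 5167 in the knockout, against 264, 1166 and 4882 in wild type. Each of the 11 was detected above 24.0 on every array.

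Markers of tissue around the neural wall mostly fell between E9.5 and E12.5, except those of macrophages. Head mesenchyme (7 genes, 5 of which fell and 1 rose) summed to 4230, 4957 and 1641 in the knockout, against 3154, 4891 and 2419 in wild type, and surface ectoderm (4 of 4 fell) to 984, 1126 and 68.1 in the knockout, against 922, 870 and 86.3 in wild type. Erythroid genes (5 measured, 3 of which fell) summed to 23570, 27440 and 17400 in the knockout, against 23070, 27670 and 13940 in wild type, with Hba-a1 below 24.0 on all arrays. Endothelial genes (3 of 5 fell and 1 rose) summed to between 288 and 571 in the knockout and 294 and 519 in wild type. Macrophage genes, of which both that were bright enough to test rose, summed to 120, 223 and 184 in the knockout, against 87.3, 242 and 193 in wild type, with C1qa and Aif1 below 24.0 on all arrays. The 3′ to 5′ signal ratios of control genes, a measure of RNA integrity, moved in different directions with age. That of Actb was 3.21, 1.59 and 1.45 in the knockout, against 3.12, 1.84 and 1.44 in wild type. That of Pcx was 1.73, 3.5 and 3.38 in the knockout, against 1.64, 8.16 and 4.20 in wild type. The ratio of Tfrc was 3.09, 3.63 and 3.27 in the knockout, against 3.44, 2.0 and 4.08 in wild type, and that of Gapdh lay between 0.823 and 0.949 on all 6 arrays. The part of these shifts in the changes of the cell cycle genes was not tested.

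No member passed the test between knockout and wild type across ages, the comparison that asks whether these genes differ in level without Fezf1 and Fezf2. With limma, 0 of 81 members passed, beside 0.0721% of all tested genes (8 genes), and 6 had an unadjusted p under 0.05, or 7.41% of members beside 4.61% of all tested genes. The nearest was Mki67, with 1876, 2020 and 1715 in the knockout, against 1644, 1530 and 1579 in wild type, higher in the knockout at 3 of 3 ages (0.24 ± 0.07, adjusted p = 0.945). The others were Kif11 (0.25 ± 0.10), Rrm1 (0.20 ± 0.06), Mcm3 (0.16) and Cdc25b (0.29), which stood higher in the knockout, and Cenpb (-0.45), which stood lower. The 95% intervals of the 13 licensing genes ran from -0.28 at the lowest to 0.41 at the highest, and those of all 81 from -0.79 to 0.69.

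At no single age did any member differ 2-fold, where the shares of all tested genes that were 2-fold higher and lower were 0.685% and 0.469% on embryonic day 9.5, 0.424% and 0.82% a day later, and 0.379% and 0.216% on day 12.5. With 1 array a genotype there is no test at an age. Differences of at least 0.5 on the log2 scale were seen, by age, in 1, 1 and 3 of 81 members, beside 8.50%, 9.12% and 6.10% of all tested genes. They were Cenpb at E9.5 (-0.55) and E12.5 (-0.76), Cdkn1a at E10.5 (-0.83), and Cdc25b (0.54) and Mcm9 (0.51) at E12.5. The second probe set of Cenpb stood at -0.33 and 0.03 at E9.5 and E12.5, that of Cdkn1a at -0.97 at E10.5, and both were below the brightness limit.

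The inhibitors as a group stood lower in the knockout at E10.5, when 5 of 5 were below wild type (median -0.21, beside -0.01 for all tested genes). At that age Cdkn1a read 56.0 in the knockout, against 105 in wild type, and Cdkn2c read 59.6 in the knockout, against 81.1 in wild type. At E9.5, 4 of 5 were above wild type (median 0.21), where Cdkn1c read 472 in the knockout, against 335 in wild type. At E10.5 the early neuron markers were also lower in the knockout, summing to 1632 against 2714 in wild type, with Dcx at 54.3 in the knockout, against 131 in wild type. Their part in the inhibitor values was not tested.

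**Figure D3:**
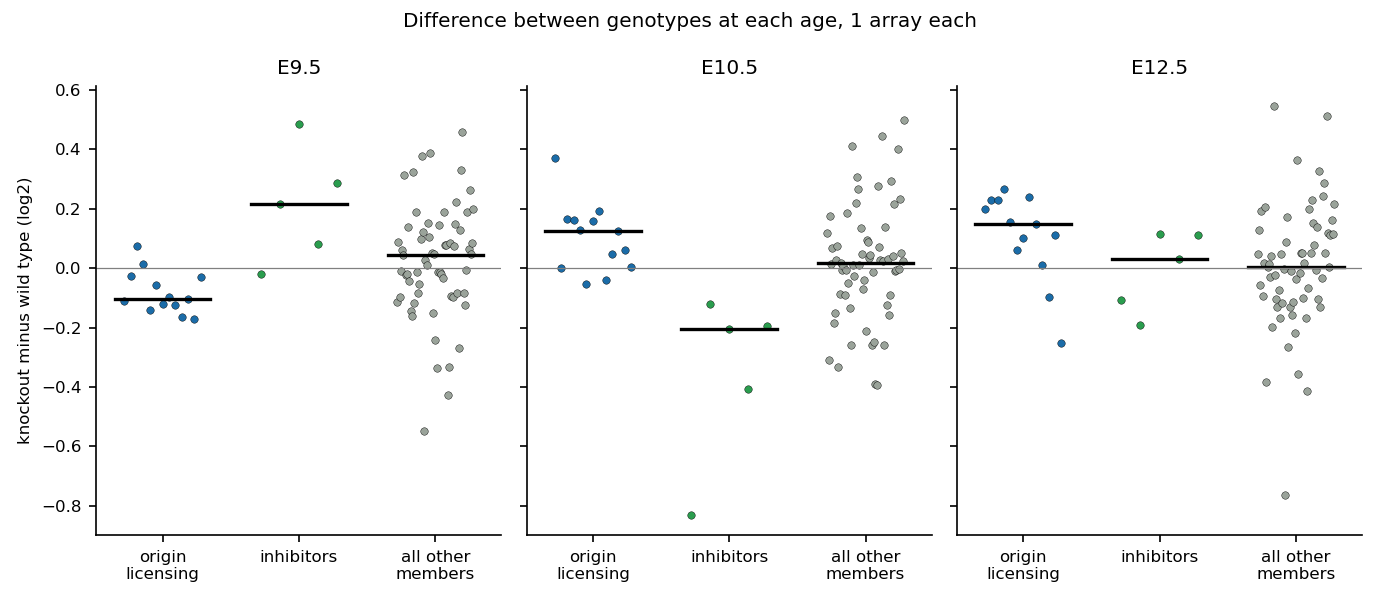
Knockout minus wild type on the log2 scale for the 81 tested members at each age, 1 array per genotype, with each point a gene and each bar the median. From the youngest age to the oldest, 2, 10 and 11 of 13 licensing genes lie above 0, and 4, 0 and 3 of 5 inhibitors. With the deposited values the licensing counts were 5, 13 and 12.

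The licensing genes showed a small shift that changed sign with age. Their median knockout minus wild type difference was, by age, -0.11, 0.13 and 0.15, while the median of all tested genes was 0.01, -0.01 and 0.02. Higher in the knockout were 2, 10 and 11 of the 13, beside 52.8%, 47.8% and 53.7% of all tested genes. The counts at E9.5 were 1 to 5 over the 4 scalings, and relative to all tested genes the median was between -0.12 and -0.10 at E9.5 and 0.13 at E12.5 under each scaling. With the mean of all probe sets of a gene that relative median was smaller at the first 2 ages, at -0.069, 0.056 and 0.12 by age, beside -0.12, 0.14 and 0.13 with the brightest.

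The shift meant that the fall with age was shallower in the knockout for 12 of 13 licensing genes, read through their brightest probe sets. No share over all tested genes was computed beside this count, and the 13 genes share the same arrays. By age, 0, 0 and 0 of the 13 differed by 0.5 or more on the log2 scale, beside 8.50%, 9.12% and 6.10% of all tested genes. The median change at E12.5 over E9.5 was -0.84 in the knockout and -1.14 in wild type, and over the genes the median of knockout minus wild type changes was 0.25. Orc1 differed most among those 12, by 0.34, and Orc6 alone fell more in the knockout, by 0.22. With the brightest probe sets all 6 of Mcm2 to Mcm7 fell less in the knockout, by 0.12 for Mcm6 to 0.30 for Mcm5. Second probe sets were mixed. Knockout minus wild type also rose from E9.5 to E12.5 with those of Mcm2, Mcm6, Mcm7, Orc1 and Orc2. With those of Mcm3, Mcm4 and Mcm5 it was -0.04, 0.009 and 0.003 at E9.5, and -0.01, 0.002 and 0.03 at E12.5. With those of Orc3 and Orc4 it went the other way, from 0.20 and 0.11 to -0.04 and -0.16. In the further replication list, 13, 21 and 22 of its 35 genes were higher in the knockout by age, with medians of -0.04, 0.04 and 0.04.

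**Figure D4:**
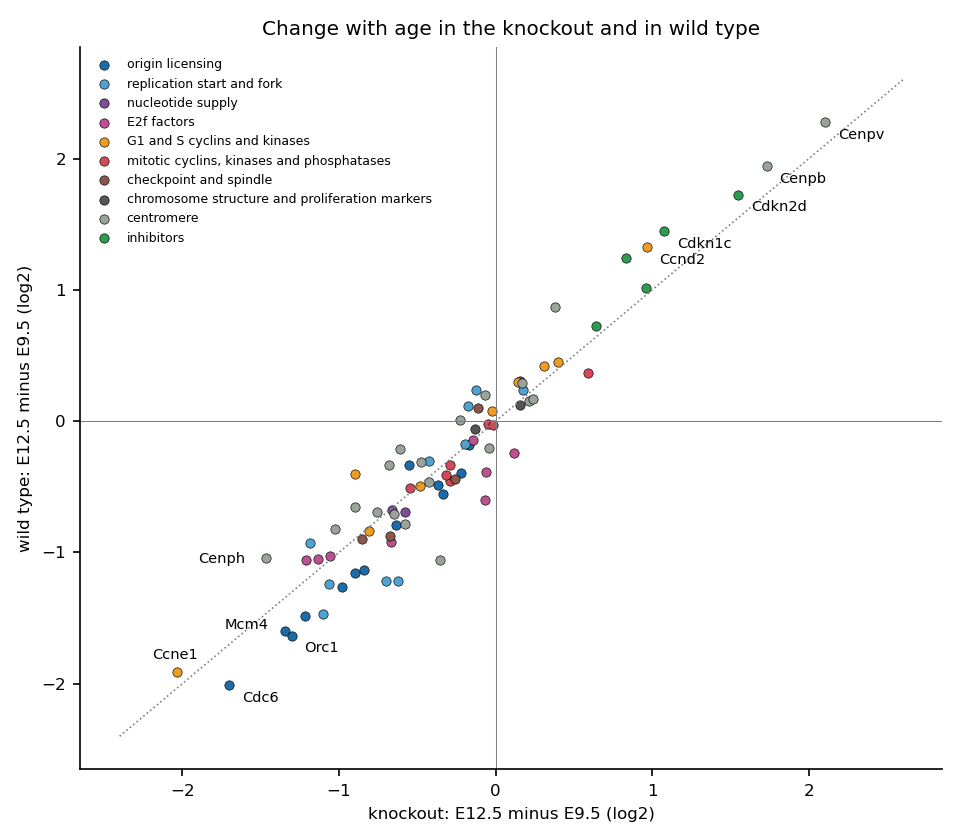
Log2 change at E12.5 over E9.5, with the knockout on the horizontal and wild type on the vertical axis, for the 81 tested members, coloured by role, from 1 array per genotype and age after quantile normalization. The dotted line marks equal change. Points lie along it. With the brightest probe set of each gene, 12 of 13 licensing genes are below it, where the fall is shallower in the knockout.

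The inhibitors rose less in the knockout in 5 of 5, with a median change at E12.5 over E9.5 of 0.96 in the knockout and 1.24 in wild type, and a median of knockout minus wild type changes of -0.17. Cdkn1b differed most among them, by -0.41. Among G1 and S cyclins and kinases the change was lower in the knockout in 7 of 9 (median -0.11, and -0.50 for Cdk6), and among centromere genes in 13 of 20 (median -0.17). With the second probe set of Cdk6, knockout minus wild type was 0.01 at E9.5 and 0.07 at E12.5. None of these differences in course was tested. Shares over all tested genes were not computed for these counts, or for that of the licensing genes. Over all 81 members the change was higher in the knockout in 41 and lower in 40, with a median of knockout minus wild type changes of 0.0038.

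Across the 81 genes the change at E12.5 over E9.5 of the knockout set against that of wild type gave a Pearson r of 0.957 and a Spearman rho of 0.933, beside a Pearson r of 0.925 over all tested genes. Genes are not independent replicates, and the values within a genotype come from the same 2 arrays. The sign was the same in 74 of 81 members, beside 88.2% of all tested genes. The largest difference in course, 0.70, was that of Cenpo, a kinetochore subunit, which read 74.1, 76.0 and 56.6 in the knockout, against 95.3, 70.8 and 42.5 in wild type. Its second probe set did not show it, with knockout minus wild type at -0.20 at E9.5 and -0.16 at E12.5. With the mean of its 6 probe sets Cenpo was too dim to be tested.

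Outside the set, the genes whose level over the 6 arrays was most like the mean standardized level of the members were Shcbp1 (r = 0.999), Chmp2b (r = 0.999), Gla (r = 0.999), Elp3 (r = 0.998) and Lin54 (r = 0.997), with n = 6 arrays that share age and genotype. Hemgn, Emcn, Maoa, Spin2c and Fbxo16 came next, of which Emcn is also on the endothelial list above. Hemgn read 192, 323.5 and 11.6 in the knockout, against 188, 360 and 9.15 in wild type. Shcbp1 read 788, 886 and 453 in the knockout, against 738, 871 and 447 in wild type. Lin54 is a DNA-binding subunit of the complex that recognises the CHR, and its level was 214, 227 and 151 in the knockout, against 202, 225 and 142 in wild type.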

How the data were processed

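Groups follow the labelled genotype and age. The deposited table gives 1 linear intensity per probe set; per the submitters' processing notes the tool was MAS5, and the sources used here name neither its scaling target nor detection calls. Of 45101 probe sets, 34958 name 1 gene symbol, 932 several and 9211 none that is listed, and only the first kind was used. Values were quantile-normalized and taken as log2(signal + 6.50), which understates the fold change of dim genes. The plan named other scalings as alternatives, and the common median was added after seeing the data. Genes brighter on average than the median probe set entered a fit of age and genotype (limma 3.58.1 under R 4.3.3, lmFit then eBayes with trend), with 2 residual degrees of freedom (9.40 after moderation) and Benjamini-Hochberg adjustment. P-values measure only the spread between these arrays, whose number limits the precision. Single ages have no test, and a gene counted as different there at 2-fold or more with the brighter array over 24.0. The fit was tested on simulated data with independent noise for each gene and no shift in level between arrays. Such data cannot show how scaling affects the calls. Named genes were those passing or 2-fold apart between genotypes, up to 10 per direction and age contrast by size, and a list of main cell cycle genes; others, such as those that split their role or hold under all scalings, were named after their values were seen. The members and all lists were chosen with earlier results of these data known.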

Additional observations from a re-analysis of the deposited data

Results flagged for a closer look

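The median difference between knockout and wild type over the 13 tested licensing genes on the log2 scale was -0.11 at E9.5, against 0.15 at E12.5. The ages stand out because 11 of the 13 genes lay below 0 at the first age and 11 of the 13 above 0 at the last. The difference between the ages was not tested, since each rests on 1 array per genotype, and the genes of a list share those arrays. Relative to all tested genes the median was -0.12 at E9.5 and 0.13 at E12.5, while averaging every probe set of a gene gave -0.069 and 0.12.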

How the results depend on the processing

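The level of the deposited arrays decided most changes. With the deposited values 26 members fell at E12.5 over E9.5 (46 after quantile normalization), 41 fell and 4 rose at E10.5 over E9.5 (15 and 16), and 2 fell and 47 rose at E12.5 over E10.5 (47 and 6). At that last step, among named genes, Orc1 (0.062), Gins3 (0.094), Orc5 (0.0026), Tyms (0.17), Ccnd3 (0.0091) and Cenps (0.14) changed sign. With a common median, added after seeing the data, 10 members rose at E12.5 over E9.5 (16). With the mean of all probe sets 5 fell at E10.5 over E9.5 and 3 rose at E12.5 over E10.5. Without a variance trend 4 fell and 6 rose at E10.5 over E9.5. Licensing genes above 0 at E9.5 numbered 5 with the deposited values and 1 each with the trimmed mean, the common median and the mean of all probe sets (2). The cause was not tested. No member passed between genotypes under any alternative run. Over all tested genes the genotype calls were few and moved: 0 to 15 higher and 0 to 34 lower when an age was left out, the most without E9.5. The fit compares genotypes within each age; without age as a block 0 genes were called, and no array has a replicate to pair by number.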
